A study of Saccharomyces cerevisiae with 90 samples.

Results

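The strain described here lacks both CUP9 and SKN7, a pair of transcription factor genes of budding yeast. It was measured on 3 of the 90 arrays of the series, which profiles mutants of filamentous growth and of Ras and cyclic AMP signalling, and 70 of those arrays form the table of 10 h colonies. The members were chosen by their titles: the 3 arrays of the cup9-skn7 strain, set against 3 arrays of the skn7 strain and against 4 of the 5 arrays labelled cup9. A further 3 arrays of the wild type in its filamentous form served for additivity, so that 13 arrays were compared. By the labels the wild type is G85, the single mutants are G85 with cup9::bcKanMX4 or with skn7::bcKanMX4, and the double mutant carries both replacements, so both loci hold the same marker cassette. All 4 groups grew for 10 h as colonies on a synthetic dextrose medium low in ammonium (SLAD), to which uracil and histidine had been added. The labels do not say how many independent transformants were used or whether the arrays of a group came from separate cultures. The p-values measure the spread between arrays within a group, pooled over the 21 groups of the table. That spread may be technical. The number of arrays limits the precision of every value.

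Cup9 is a homeodomain repressor. Its best known target is PTR2, which encodes the plasma membrane importer of di- and tripeptides. Imported dipeptides bind the ubiquitin ligase Ubr1 and speed the destruction of Cup9, so that PTR2 is derepressed and peptide import feeds back on itself. Skn7 is a response regulator of the Sln1 and Ypd1 phosphorelay that carries a DNA-binding domain like that of heat shock factor. It is known for the activation of antioxidant genes together with Yap1 and for roles in cell wall and osmotic stress. The double mutant allows a comparison of the loss of each factor in cells that have the other factor and in cells that lack it.

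Levels are given as log2 intensity as deposited, in which a difference of 1 is a doubling. A total of 5562 genes were fitted together in limma, and a gene counted as called in a comparison where its p, adjusted over all of them by Benjamini-Hochberg, was under 0.05. Differences are followed by their standard error (SE). Over all 6739 probe sets, array medians in the 4 groups as labelled, with cup9 replicate 4 included, ran from 6.27 to 6.62. Over the 5562 genes, the medians of the 13 arrays compared ran from 6.52 to 6.83. The library labelled cup9 replicate 4 had CUP9 at 8.21 and TEC1 at 4.57, and the library labelled tec1 replicate 1 had CUP9 at 4.07 and TEC1 at 8.68. Both go against their labels and neither entered the main comparisons.

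The deleted genes read as the labels of the double mutant say. CUP9 stood at 5.11, 4.44 and 4.07 in the 3 double mutant arrays and at 4.34, 3.68, 3.86 and 3.91 in the cup9 arrays. It stood at 7.75, 8.19 and 7.80 in the skn7 arrays and at 7.78, 7.72 and 7.84 in the wild type. The double mutant arrays thus lay below every array with an intact CUP9, and the first of them was the highest of the arrays without the gene. SKN7 stood at 4.09, 4.23 and 3.85 in the double mutant and at 4.28, 3.88 and 4.28 in the skn7 arrays. It stood at 7.71, 7.57, 7.83 and 7.42 in the cup9 arrays and at 7.79, 7.38 and 7.83 in the wild type, so the arrays with and without the gene did not overlap. The residual CUP9 signal was 0.59 ± 0.24 (SE) higher in the double mutant than in cup9 (adjusted p = 0.05 after rounding, limma), with arrays that overlapped. Its call was lost without double mutant replicate 1 (0.3, adjusted p = 0.45, limma), among other alternatives. A fit of only these 4 groups gave an adjusted p of 0.0582 (limma). With the 2 libraries that go against their labels put back, the difference was -0.26 (adjusted p = 0.749, limma). That setting adds the library labelled cup9 replicate 4, with CUP9 at 8.21, to the cup9 group, so it cannot inform on the residual signal.

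**Figure D1:**
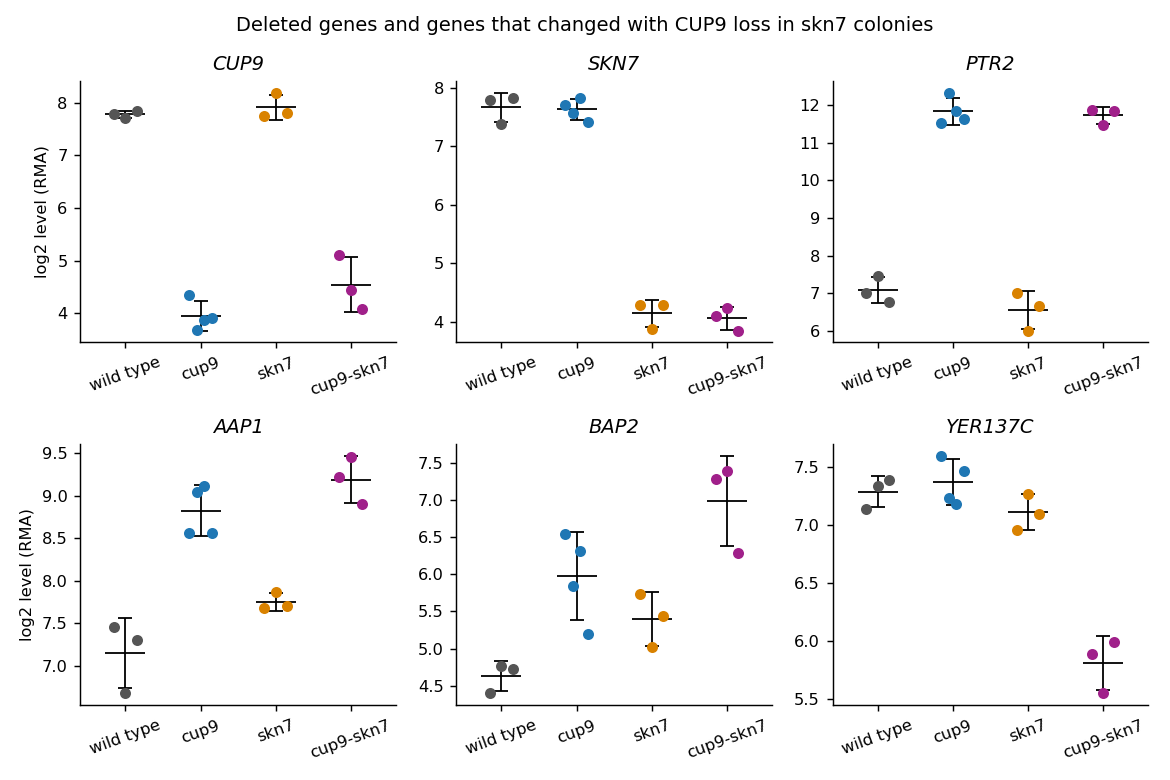
Log2 level of selected genes in each of the 13 arrays, by strain, with points for arrays, a black dash for the group mean and error bars for 1 SD. CUP9 and SKN7 are low where deleted, PTR2 is between 11.47 and 11.87 in the double mutant and between 6.01 and 7.0 in skn7, and YER137C is low in the double mutant.

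Against skn7, few genes were called on the removal of CUP9. The median standard error of this comparison was 0.19, so small changes could go uncalled. Of 5562 genes, 6 rose (0.108 percent) and 3 fell (0.0539 percent), so that 0.162 percent were called in all, and 405 had an unadjusted p under 0.05. The largest change was in PTR2, the Cup9 target, which rose together with AAP1 and BAP2, and CUP9 itself fell. The arrays of the double mutant and of skn7 did not overlap for any of the 9 called genes, against 12.4 percent of all genes without overlap. The median difference over all genes was 0.01 and its standard deviation was 0.26.

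PTR2 stood at 11.87, 11.47 and 11.83 in the double mutant and at 7.0, 6.01 and 6.67 in skn7. It stood at 11.52, 12.32, 11.84 and 11.63 in cup9 and at 7.01, 7.47 and 6.78 in the wild type. All arrays without CUP9 were high and all arrays with it were low, whether SKN7 was present or not. The difference between the double mutant and skn7 was 5.16 ± 0.50 (adjusted p = 1.02e-10, limma). Between the double mutant and cup9 the difference was -0.10, with a 95% interval from -1.05 to 0.84 and an adjusted p of 0.889 in limma. That interval is wide enough to hold a change of about a doubling in either direction.

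AAP1 encodes an aminopeptidase that cleaves arginine and alanine from peptides. Its level was 9.22, 9.46 and 8.90 in the double mutant and 7.68, 7.87 and 7.71 in skn7. In cup9 it was 8.57, 9.05, 9.12 and 8.57, and in the wild type 7.46, 6.68 and 7.31. The gene rose by 1.44 ± 0.20 against skn7 (adjusted p = 3.35e-06, limma), and as for PTR2 every array without CUP9 lay above every array with it. BAP2 encodes a permease for leucine, isoleucine and valine. Its level was 7.29, 7.39 and 6.29 in the double mutant, 5.74, 5.02 and 5.44 in skn7, 6.54, 5.84, 6.32 and 5.20 in cup9, and 4.40, 4.77 and 4.73 in the wild type. BAP2 was 1.59 ± 0.29 higher in the double mutant than in skn7 (adjusted p = 0.0012, limma). Its mean was highest in the double mutant and lowest in the wild type, and the arrays of cup9 overlapped with those of the double mutant and of skn7.

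The other called genes changed less. MPC54, a component of the spindle pole body made in meiosis, stood at 3.46, 3.27 and 3.52 in the double mutant and at 2.88, 2.82 and 2.89 in skn7, a rise of 0.55 ± 0.12 (adjusted p = 0.022, limma) at the dim end of the array. PAC1, which targets dynein to microtubules, stood at 6.52, 6.30 and 6.01 in the double mutant and at 7.56, 6.88 and 7.14 in skn7, a change of -0.92 ± 0.21 (adjusted p = 0.0297, limma). In cup9 and the wild type PAC1 lay between 5.96 and 6.36, close to the double mutant. Of the 9 genes, 3 have no gene name and are named here after their values were seen. YER137C fell (-1.30 ± 0.25, adjusted p = 0.00261, limma), YFR006W rose (0.72 ± 0.15, adjusted p = 0.0132) and YHR022C rose (0.64 ± 0.14, adjusted p = 0.0218).

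YER137C stood at 5.89, 5.55 and 5.99 in the double mutant, at 6.96, 7.27 and 7.10 in skn7, at 7.60, 7.23, 7.18 and 7.47 in cup9 and at 7.14, 7.34 and 7.39 in the wild type. Only the double mutant was low, and its highest array lay below the lowest array of the other 3 groups. Of the 9 calls, 3 (PTR2, AAP1 and CUP9) held under every alternative. When the other strains of the table were left out of the fit, 4 genes were called. Without skn7 replicate 1, 2 or 3 the counts were 5, 15 and 5, and without double mutant replicate 2 the count was 4. BAP2 lost its call in the fit of 4 groups (adjusted p = 0.142, limma) and without double mutant replicate 2 (adjusted p = 0.0507, limma). YER137C lost its call without double mutant replicate 2 (adjusted p = 0.0675, limma). MPC54, PAC1, YFR006W and YHR022C each lost their calls without skn7 replicate 1 (adjusted p = 0.119, 0.736, 0.272 and 0.272, limma), among other alternatives.

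The same question can be asked of the loss of CUP9 in cells with an intact SKN7. This comparison, cup9 against the wild type, uses none of the arrays of the comparison above. It called 23 genes, of which 17 rose (0.306 percent of 5562) and 6 fell (0.108 percent), or 0.414 percent in all. Of the 6 genes that rose against skn7, 4 (PTR2, AAP1, BAP2 and YFR006W) also rose here, and of the 3 that fell CUP9 also fell here. The shared risers are 66.7 percent of the 6 and 23.5 percent of the 17.

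**Figure D2:**
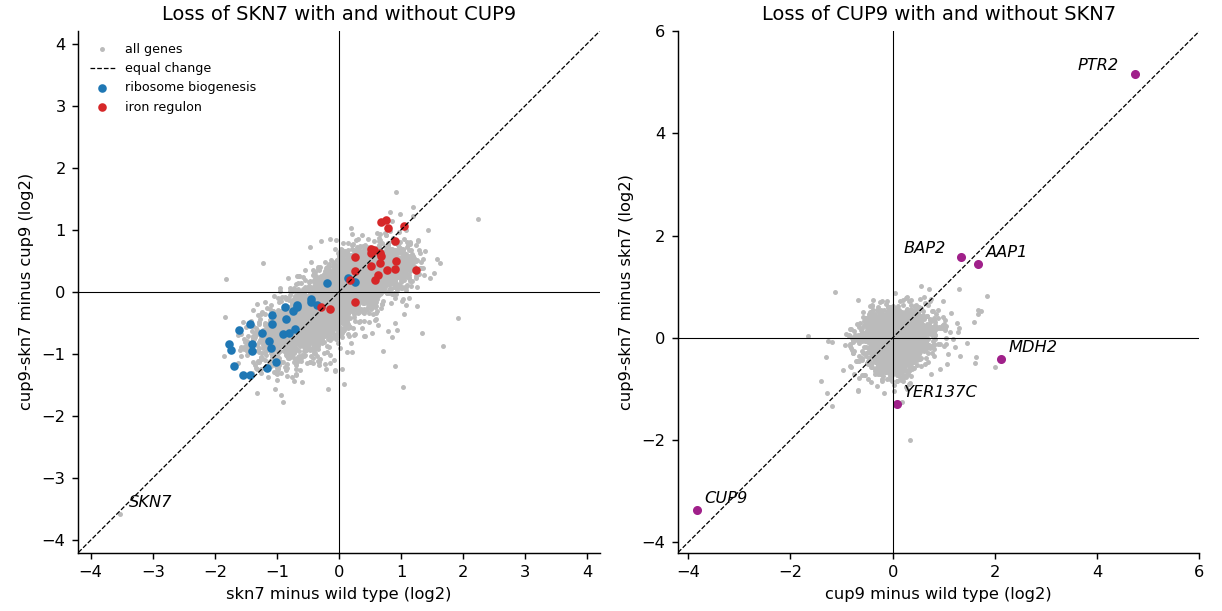
Log2 differences per gene, with the change on loss of SKN7 in the left panel (in cells with CUP9 on the x axis, in cells without CUP9 on the y axis) and the change on loss of CUP9 in the right panel (in cells with SKN7 on the x axis, in cells without SKN7 on the y axis). The axes of a panel share no arrays, and Pearson's r across 5562 genes is 0.757 in the left panel and 0.156 in the right one.

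The remaining 18 genes called in cup9 against the wild type had differences from -1.08 to 0.95 between the double mutant and skn7, with a median of 0.05, and 11 of the 18 had the same sign in both. The genes named in the rest of this paragraph were picked from these 18 after their values were seen. SRL3 kept a similar size, at 1.30 in cup9 against the wild type and 0.95 in the double mutant against skn7 (adjusted p = 0.0676, limma). MDH2 encodes the cytosolic malate dehydrogenase of gluconeogenesis. It stood at 8.73, 10.72, 8.75 and 11.25 in cup9, at 7.78, 8.07 and 7.38 in the wild type, at 9.06, 8.51 and 9.42 in the double mutant and at 9.48, 9.52 and 9.24 in skn7. The cup9 arrays of replicates 2 and 5 were far above the other cup9 arrays. The change on loss of CUP9 was 2.12 with SKN7 intact and -0.42 without it, and the difference of these changes did not pass the test (-2.54 ± 0.68, adjusted p = 0.297, limma). HSP104, a disaggregase of heat-damaged proteins, read 1.17 and -0.03 in the same order. IZH4, a membrane protein of zinc homeostasis, read -1.18 and -0.08. Across 5562 genes the changes on loss of CUP9 in the presence and absence of SKN7 had a Pearson's r of 0.156 and a Spearman's rho of 0.006, and r was 0.072 without CUP9, SKN7 and PTR2. Genes are not independent replicates, and most of these differences lie near their standard error, whose median was 0.19 and 0.18.

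Against cup9, the removal of SKN7 changed many genes. Of 5562 genes, 338 rose (6.08 percent) and 833 fell (15 percent), 21.1 percent in all, and 2076 had an unadjusted p under 0.05. In the iron regulon 9 of 24 members rose, and in ribosome biogenesis 10 of 30 fell. The median difference over all genes was -0.06, and the array median over the genes was 6.52 to 6.70 in the 6 arrays without SKN7 and 6.73 to 6.83 in the 7 arrays with it. The part of this shift in the calls was not tested beyond the quantile normalization given next. The arrays of the double mutant and of cup9 did not overlap for 1024 of the called genes, or 18.4 percent of all genes, while 32.4 percent of all genes did not overlap whether called or not.

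The size of this count rested on particular arrays and on the scaling. Without double mutant replicate 1 it was 171, without cup9 replicate 5 it was 284 and without cup9 replicate 1 it was 711. After quantile normalization 546 genes rose and 566 fell. Under every alternative 131 genes held their call, 23 of them higher and 108 lower in the double mutant. A gene said below to have held its call did so under every alternative run.

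CWP2 encodes an abundant mannoprotein of the cell wall. Its level was 11.09, 11.10 and 10.72 in the double mutant, 12.65, 12.90, 12.86 and 12.54 in cup9, 12.24, 10.82 and 11.75 in skn7, and 12.49, 12.62 and 12.39 in the wild type. It was lower in the double mutant than in any cup9 array, while the skn7 arrays spread over more than a doubling. The difference from cup9 was -1.77 ± 0.26 (adjusted p = 1.75e-05, limma) and held. Among the other largest falls, SSF1, NOP16 and RBP95 act in the assembly of the large ribosomal subunit. SSF1 stood at 4.51, 4.57 and 5.45 in the double mutant and at 6.54, 5.82, 6.58 and 6.92 in cup9 (-1.63 ± 0.37, adjusted p = 0.00416, limma). NOP16 stood at 6.03, 5.88 and 6.87 in the double mutant and at 7.42, 7.70, 7.79 and 8.42 in cup9 (-1.57 ± 0.38, adjusted p = 0.00641, limma). For both genes replicate 3 was the highest of the double mutant arrays and still lay below all cup9 arrays. RBP95 changed by -1.43, as did 2 genes of membrane traffic, VPS20 of the ESCRT-III complex by -1.45 and YPT6, a Rab GTPase of the Golgi, by -1.37. All of these calls held. SAS10, LRP1 and CGR1, which act in the processing of ribosomal RNA, were called lower too, and each lost its call without double mutant replicate 1 and without cup9 replicate 5.

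MCH5 encodes a plasma membrane transporter of riboflavin and rose the most. Its level was 7.26, 7.06 and 8.67 in the double mutant, 6.02, 6.35, 6.54 and 6.28 in cup9, 7.39, 6.80 and 6.96 in skn7, and 5.97, 5.77 and 5.85 in the wild type. The difference from cup9 was 1.36 ± 0.27 (adjusted p = 0.00147, limma), with replicate 3 far above the other double mutant arrays. PRM5, which is induced through the cell integrity pathway, stood at 6.36, 6.30 and 6.23 in the double mutant and at 4.77, 5.54, 5.32 and 4.53 in cup9 (1.26 ± 0.23, adjusted p = 0.000749, limma). Its skn7 arrays were at 5.71, 6.07 and 5.54 and its wild type arrays at 4.68, 4.67 and 5.01, so the double mutant held the highest levels. YHK8, a presumed drug exporter, rose by 1.23 ± 0.25 (adjusted p = 0.00159, limma). COS8, one of a family of similar genes near chromosome ends that a probe set may not tell apart, read 1.18 and lost its call without double mutant replicate 1 (adjusted p = 0.0545, limma). MCH5, PRM5 and YHK8 held their calls.

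The iron regulon, the genes that Aft1 switches on when iron is short, had 9 of 24 measured members higher and 0 lower in the double mutant than in cup9, with a median difference of 0.48. This is 37.5 percent higher, against 6.08 percent of all genes higher and 15 percent lower. ARN1, ARN2 and ENB1 encode transporters of iron-siderophore chelates. ENB1 stood at 10.34, 9.71 and 10.48 in the double mutant, at 8.58, 9.24, 9.39 and 9.21 in cup9, at 10.23, 9.65 and 10.05 in skn7 and at 8.94, 9.0 and 8.84 in the wild type. Every array without SKN7 lay above every array with it. The differences from cup9 were 1.07 ± 0.20 for ENB1 (adjusted p = 0.000783, limma), 1.12 for ARN2 and 1.03 for ARN1, and all 3 held. FRE4, a ferric reductase, read 1.16, SMF3, an exporter of vacuolar iron, 0.82, and CCC2, which loads copper for high affinity iron uptake, 0.69. These 3 lost their calls without cup9 replicate 5 and without double mutant replicate 1, which left 4 and 3 members of the list called. FET4, a low affinity importer of iron that is not on the list, stood at 5.28, 5.03 and 6.32 in the double mutant, at 4.02, 4.52, 4.42 and 4.67 in cup9, at 6.29, 5.90 and 6.09 in skn7 and at 5.39, 5.13 and 5.21 in the wild type. It rose by 1.14 ± 0.23 against cup9 (adjusted p = 0.00158, limma), and 2 of its 3 double mutant arrays lay within or below the range of the wild type.

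Of 30 measured genes for ribosome biogenesis, 10 fell and 0 rose, with a median of -0.61. This is 33.3 percent lower, against 15 percent of all genes. They included NOP12, NOP15, RLP24, MAK16, EBP2 and RLP7, all of which act on the large subunit, with differences from -1.34 to -0.96. RLP24 stood at 7.0, 7.25 and 8.07 in the double mutant, at 8.62, 8.38, 8.45 and 9.10 in cup9, at 7.27, 7.31 and 7.92 in skn7 and at 9.19, 9.0 and 9.37 in the wild type. Arrays without SKN7 were all below arrays with it. The count was 0 without double mutant replicate 1, 2 without replicate 2, 15 without replicate 3 and 1 without cup9 replicate 5. The median of the list, taken per array against the wild type mean, was -0.96, -0.94 and -0.34 in the double mutant, -1.18, -0.98 and -0.80 in skn7 and -0.46, -0.10, -0.16 and 0.07 in cup9. Replicate 3 of the double mutant thus lay between the skn7 and most of the cup9 arrays, within the range of cup9. Of 22 subunits of RNA polymerases I and III, which make ribosomal and transfer RNA, 5 fell (RPC31, RPA34, RPA43, RPC19 and RPC37), or 22.7 percent against the same 15 percent, with a median of -0.24 over the list. None of the 5 was called without cup9 replicate 5 or without double mutant replicate 1. Of the polymerase list, 3 members were called lower after quantile normalization and 1 with the block on the replicate number. Of 17 cytosolic ribosomal protein genes none was called and the median was -0.07.

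**Figure D3:**
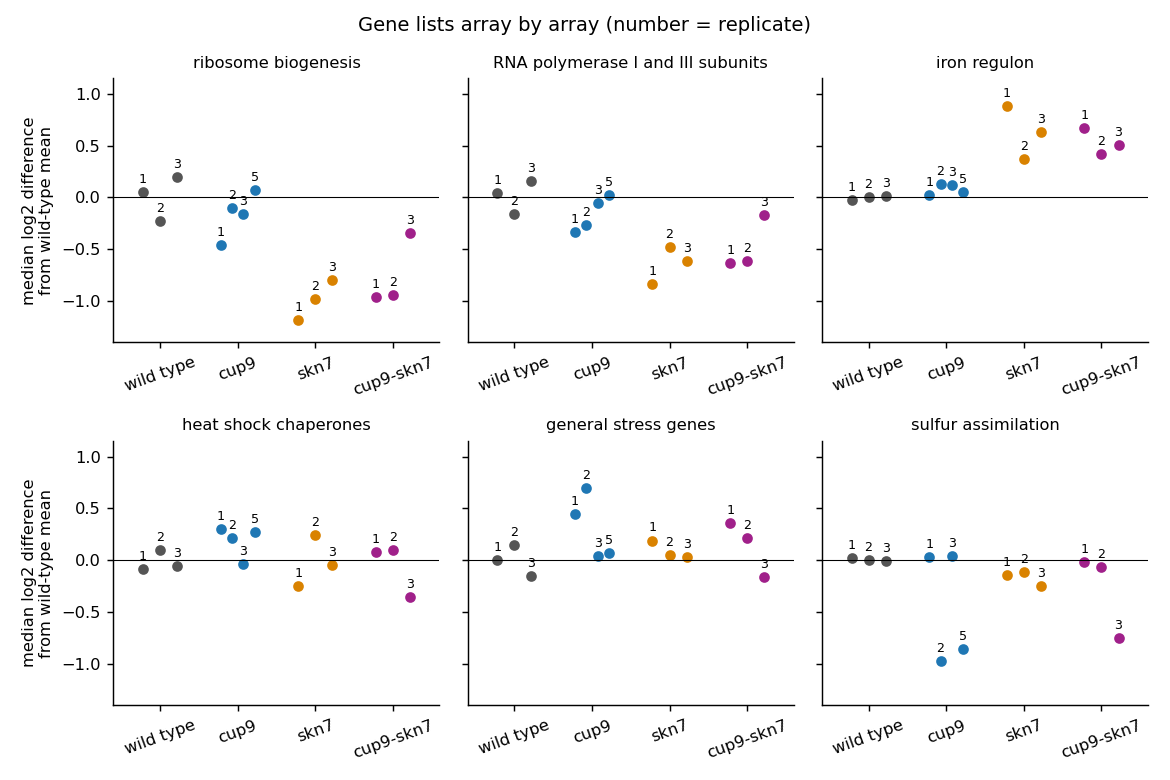
Median over the measured members of gene lists in each array, as log2 difference from the wild type mean, with points for arrays and their replicate numbers above. The ribosome biogenesis list is at -0.96, -0.94 and -0.34 in the double mutant arrays, and the iron regulon is at 0.67, 0.42 and 0.51 there against 0.02 to 0.13 in cup9.

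Of 20 antioxidant genes of the Skn7 and Yap1 response, 4 fell and 1 rose against cup9, or 20 and 5 percent, which is near the 15 and 6.08 percent of all genes. The best known targets of Skn7 and Yap1 were not among them: TRX2, a thioredoxin, read 0.04, TRR1, thioredoxin reductase, -0.15, and TSA1, a peroxiredoxin, -0.27 (adjusted p = 0.0554, limma). TSA1 passed with the libraries that go against their labels put back (adjusted p = 0.04, limma) and with a robust eBayes with a trend (adjusted p = 0.0444, limma). SOD2, the mitochondrial superoxide dismutase, stood at 8.12, 8.32 and 7.83 in the double mutant, at 9.05, 8.99, 8.72 and 9.19 in cup9, at 8.21, 8.47 and 8.09 in skn7 and at 8.18, 8.29 and 8.23 in the wild type. Only the cup9 arrays were high, although SOD2 was not called in cup9 against the wild type. The difference of the double mutant from cup9, -0.90 ± 0.19 (adjusted p = 0.00307, limma), held. GPX2, a glutathione peroxidase, changed by -0.73 and the old yellow enzyme gene OYE3 by 0.69, and both held. AHP1, a peroxiredoxin, changed by -0.58 and YAP1 itself by -0.59, and both lost their calls without double mutant replicate 1 or 3. YAP1 also lost its call without cup9 replicate 5 (adjusted p = 0.111, limma) and after quantile normalization (adjusted p = 0.0546, limma).

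HSP104 resembled SOD2 in that cup9 was the group that stood apart. It stood at 5.84, 5.94 and 5.78 in the double mutant, at 6.94, 8.21, 5.99 and 7.32 in cup9, at 5.50, 5.99 and 6.16 in skn7 and at 5.71, 6.42 and 5.70 in the wild type. The cup9 arrays spread over more than a doubling, with replicate 3 near the other strains, and the difference of -1.27 ± 0.29 (adjusted p = 0.00387, limma) held. In all, 4 of 19 heat shock chaperones fell (HSP104, HSP42, STI1 and CPR6, median -0.48 over the list) and 4 of 23 general stress genes fell (HSP104, HSP42, PNC1 and HOR7, median -0.20). These are 21.1 and 17.4 percent of the members, near the 15 percent of all genes that fell. Without cup9 replicate 3, 9 chaperones were called lower, and without double mutant replicate 3 a single chaperone and a single general stress gene were. HSP42 had an adjusted p of 0.293 without cup9 replicate 2 (limma). Of 25 genes of the respiratory chain 3 fell, CYC7, QCR6 and COA4, and COA4 alone held its call. COA4, an assembly factor of cytochrome oxidase, stood at 5.90, 5.39 and 5.36 in the double mutant and at 6.60, 6.46, 6.16 and 7.07 in cup9 (-1.02 ± 0.20, adjusted p = 0.00147, limma).

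Among 17 genes of G1 and B-type cyclins and their regulators, MBP1 and SWI6 fell, or 11.8 percent, which is under the 15 percent of all genes. Their products form MBF, which drives genes of the G1 to S transition. MBP1 stood at 4.83, 4.76 and 5.04 in the double mutant, at 6.06, 5.88, 5.79 and 5.96 in cup9, at 4.68, 4.84 and 5.32 in skn7 and at 5.80, 5.41 and 5.63 in the wild type. The arrays without SKN7 were below the arrays with it. MBP1 changed by -1.04 (adjusted p = 0.00147, limma) and SWI6 by -0.71 (adjusted p = 0.00658, limma), and both held.

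Among 20 regulators of filamentous growth, 4 fell and 1 rose, or 20 and 5 percent against 15 and 6.08 percent of all genes. HMS1, a basic helix-loop-helix factor, stood at 4.63, 4.64 and 4.94 in the double mutant, at 5.73, 5.91, 5.50 and 6.23 in cup9, at 4.68, 4.47 and 4.43 in skn7 and at 5.61, 5.46 and 5.53 in the wild type. Arrays with and without SKN7 did not overlap, and the difference from cup9 was -1.11 ± 0.18 (adjusted p = 6.63e-05, limma) and held. PHD1, an activator of filamentous growth, stood at 6.97, 6.80 and 7.17 in the double mutant, at 6.19, 6.07, 6.49 and 5.81 in cup9, at 7.13, 7.13 and 6.57 in skn7 and at 7.06, 6.76 and 7.15 in the wild type. Here cup9 was the low group, although PHD1 was not called in cup9 against the wild type. The rise of 0.83 ± 0.23 in the double mutant against cup9 (adjusted p = 0.0131, limma) lost its call without cup9 replicate 5 or double mutant replicate 1 (adjusted p = 0.0605 and 0.0641, limma). NRG1, a glucose-dependent repressor, read -1.10 with cup9 arrays at 3.10, 5.27, 3.11 and 5.13. Its adjusted p was 0.0888 without cup9 replicate 2 and 0.115 without cup9 replicate 5 in limma. CIN5 and TPK3 also fell, and both lost their calls without double mutant replicate 1. FLO11, the flocculin needed for filaments, stood at 10.73, 10.38 and 12.80 in the double mutant, at 10.46, 12.64, 11.66 and 11.04 in cup9, at 12.10, 10.01 and 11.03 in skn7 and at 10.94, 10.09 and 10.86 in the wild type. Its arrays overlapped among all 4 groups and it was called in none of the comparisons.

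Over all genes, 6.08 percent rose and 15 percent fell against cup9. Of the genes of the cell wall and cell integrity pathway, 3 of 26 rose (PRM5, MID2 and FKS1, 11.5 percent) and SLT2, the kinase of the pathway, fell. Of 23 genes of ergosterol synthesis 4 rose (ERG1, ERG3, ERG24 and ERG25, 17.4 percent) and ERG6 fell, with a median of 0.28, and ERG1, squalene epoxidase, held its call (0.61, adjusted p = 0.00656, limma). Without cup9 replicate 5 or double mutant replicate 1, 1 member of each of these lists was called. Of 19 amino acid permeases, 3 rose (BAP2, TAT2 and AGP3, 15.8 percent, median 0.31), and BAP2 read 1.02 (adjusted p = 0.0101, limma). Without cup9 replicate 5 or double mutant replicate 1, none of these permeases was called. Of 19 genes of hexose transport and sucrose use, SUC2, GAL2 and HXT8 rose (15.8 percent) and MTH1 fell. SUC2, invertase, stood at 5.73, 5.64 and 5.60 in the double mutant and at 4.78, 4.94, 5.21 and 4.46 in cup9, a rise of 0.81 that lost its call without either of the same arrays (adjusted p = 0.0904 and 0.101, limma).

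The other lists had few called members, and their shares lower were 0 to 15.8 percent against 15 percent of all genes. Of 13 genes of peptide uptake and the route of Cup9 degradation, SSY1 rose and RAD6 and STP2 fell. OPT2, an oligopeptide transporter, stood at 6.51, 6.42 and 5.89 in the double mutant, at 7.72, 6.76 and 7.44 in skn7, at 5.82, 5.79, 5.65 and 4.92 in cup9 and at 6.47, 6.05 and 6.13 in the wild type, and was not called against cup9 (0.73, adjusted p = 0.0545, limma) or skn7 (-1.03, adjusted p = 0.237). Against cup9 it passed under 5 alternatives, with adjusted p from 0.0259 to 0.0495 in limma. Of 13 genes of copper handling CCC2 rose and COX17 and CUP2 fell, of 19 genes of the Sln1 phosphorelay and HOG pathway STE50, GPP2 and SKO1 fell, and of 26 nitrogen catabolite repressed genes DAL2 and DAL3 fell. The median of 18 genes of sulfur assimilation, per array against the wild type mean, was -0.02, -0.07 and -0.75 in the double mutant and 0.03, -0.97, 0.04 and -0.86 in cup9. Double mutant replicate 3 and cup9 replicates 2 and 5 were thus low, and 1 gene of the list was called (CYS3, higher). A single member was called among 20 of the TCA cycle (MDH1, lower), 19 of purine and one-carbon synthesis (ADE8, lower) and 16 of the filamentation MAPK pathway (STE50, lower). No member was called among 20 genes of glycolysis and fermentation, 11 of daughter cell separation and 3 flocculins. Against skn7, PTR2 and BAP2 were the only members called in any list.

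**Figure D4:**
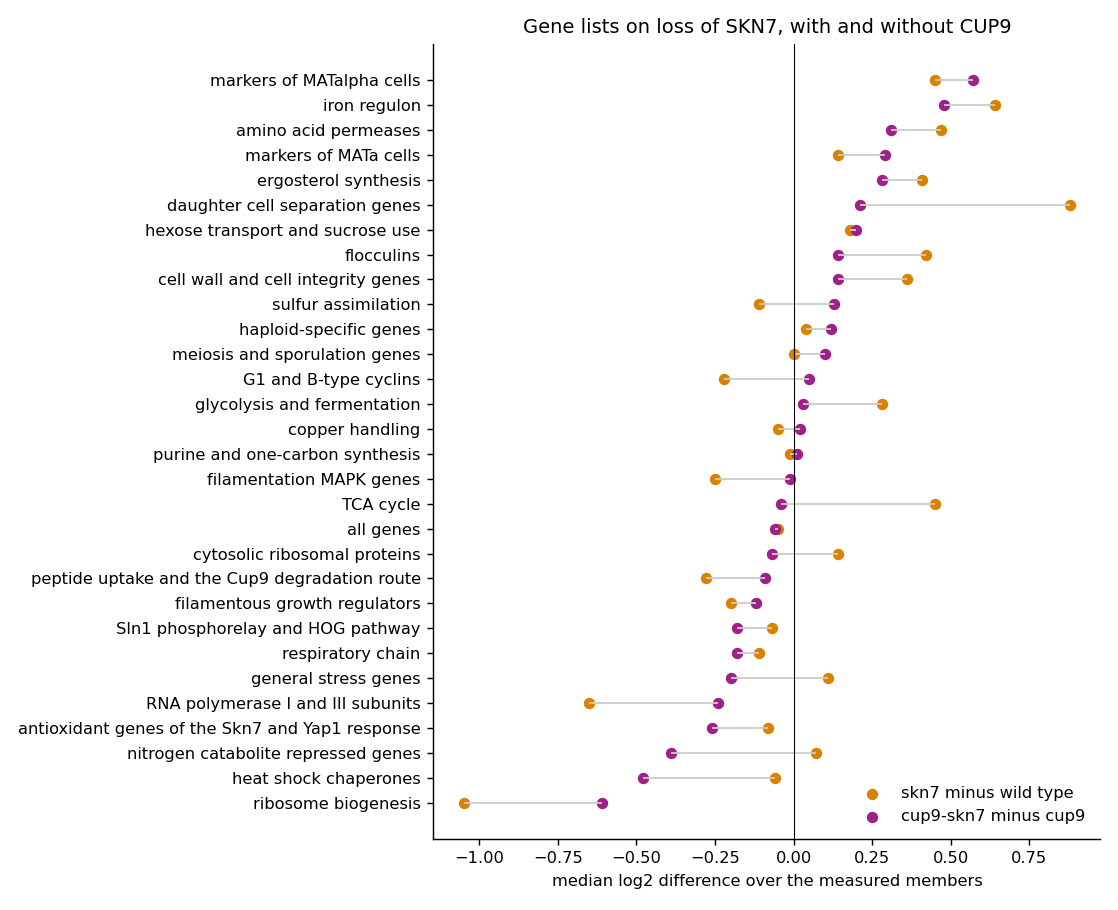
Median log2 difference over the measured members of each gene list, for the double mutant against cup9 and for skn7 against the wild type, joined by a line, with all genes for reference. The ribosome biogenesis list is at -0.61 and -1.05, and the iron regulon at 0.48 and 0.64.

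The labels give neither the ploidy nor the mating type of G85, so whether the mating type and haploid lists mark other cells or the strain itself is unknown. Against cup9, where 6.08 percent of all genes rose and 15 percent fell, of 6 MATa markers 2 rose (STE2 and MFA2), of 4 MATalpha markers 3 rose (STE3, MF(ALPHA)1 and MF(ALPHA)2), of 11 haploid-specific genes 2 rose and 1 fell, and of 14 genes of meiosis and sporulation 3 rose. The summed linear intensity of the MATalpha markers was 220 to 274 in the double mutant, 211 to 309 in skn7, 133 to 201 in cup9 and 160 to 184 in the wild type. That of the MATa markers was 216 to 263 in the double mutant, 186 to 245 in skn7, 154 to 178 in cup9 and 181 to 211 in the wild type. The sums of the meiosis genes were 184 to 230 in the double mutant and 170 to 201 in cup9, and those of the haploid-specific genes 250 to 279 and 276 to 332. No marker of these lists is at 0, since the deposited scale has no zero. By these sums the mean member of each list lay below the array median over the genes (log2 6.52 to 6.83). The lists were thus dim on average, where levels are least certain. None of the calls in these marker lists was left without cup9 replicate 5 or without double mutant replicate 1. The part of these markers in the results above was not tested, and in such colonies fewer cells of a type and less RNA per cell cannot be told apart.

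Loss of SKN7 in cells with CUP9, that is skn7 against the wild type, shares no arrays with the double mutant against cup9. It called 2039 genes (36.7 percent), 882 higher (15.9 percent) and 1157 lower (20.8 percent). This count was 612 without skn7 replicate 1 and 1347 without wild type replicate 3, and the shares below rest on it and on the 1171 calls, which were 171 without double mutant replicate 1. Of the 338 genes that rose in the double mutant against cup9, 155 also rose on loss of SKN7 alone, which is 45.9 percent of the first list and 17.6 percent of the second. Of the 833 that fell, 492 fell in both, or 59.1 and 42.5 percent. A total of 2 genes were called in opposite directions. Across 5562 genes the differences had a Pearson's r of 0.757 and a Spearman's rho of 0.78, as the left panel of the plot of the changes in each background shows. Residuals of same-numbered double mutant and skn7 arrays correlated (0.506, 0.342 and 0.162), so these differences are not independent although they share no arrays, and the part of this in r was not tested. The sizes depended on which list was used. Over the genes called lower in the double mutant against cup9, the medians were -0.70 there and -0.63 in skn7 against the wild type. Over those called lower in skn7, they were -0.50 and -0.74. The iron regulon had a median of 0.48 in cells without CUP9 and 0.64 in cells with it, and ribosome biogenesis -0.61 and -1.05.

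Whether the effects of the losses add up was asked of each gene by the departure of the double mutant from the sum of the single changes, which uses all 4 groups. No gene departed at an adjusted p under 0.05 in limma, 481 had an unadjusted p under 0.05, and the smallest adjusted p was 0.151. The median standard error of a departure was 0.27 against 0.18 to 0.19 for the simple comparisons, so only large departures could pass. PTR2 was 4.64 above the wild type in the double mutant, where the single changes sum to 4.22. The departure of 0.42 had a 95% interval from -0.96 to 1.81. AAP1 was 2.04 above the wild type with a sum of 2.28, and the interval of its departure ran from -0.78 to 0.31. BAP2 was 2.36 above with a sum of 2.11 and an interval from -0.53 to 1.03. These 3 genes of peptide and amino acid use did not depart from additivity by more than their errors, which still allow departures of those sizes.

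**Figure D5:**
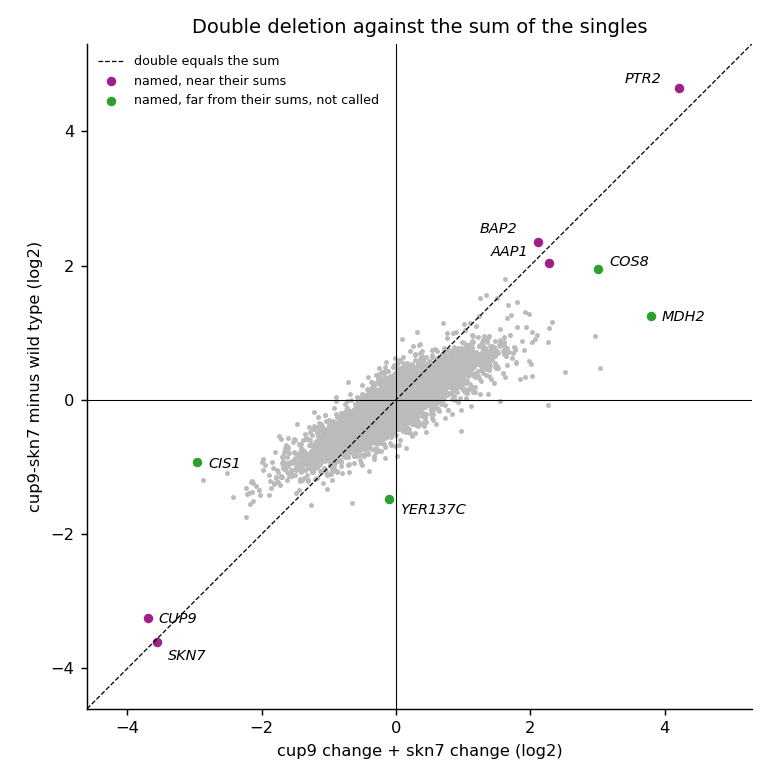
Change in the double mutant against the wild type (y axis, log2) against the sum of the changes in the single mutants (x axis, log2), 1 point per gene, with a dashed line where they are equal. PTR2, AAP1 and BAP2 lie near the line, and CIS1, MDH2, COS8 and YER137C are labelled among the genes farther from it, none of which passed the test.

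Some genes that lay off the sum are named here after their values were seen, and they are not a ranking by size. MDH2, given above, departed by -2.54, more than any gene described below. YGR035C departed by 1.69 and YDR222W by -1.67 (adjusted p = 0.183 and 0.297, limma). CIS1 stood at 6.66, 6.31 and 6.75 in the double mutant, at 5.41, 5.91 and 5.71 in skn7, at 6.66, 6.10, 6.73 and 5.97 in cup9 and at 7.33, 7.31 and 7.86 in the wild type. It was highest in the wild type, and the double mutant lay within the cup9 range or close to it while the skn7 arrays were lowest. Its departure of 2.03 ± 0.46 had an adjusted p of 0.151 in limma. YER137C departed by -1.38 ± 0.34 (adjusted p = 0.198, limma), since neither single loss moved it by more than 0.18. In a fit of only the 4 groups, these 2 genes passed (adjusted p = 0.0361 each, limma). MPC54 departed by 0.73 ± 0.17 (adjusted p = 0.151, limma). COS8 stood 1.95 above the wild type with a sum of 3.01 (adjusted p = 0.483, limma).

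Against the wild type itself, 742 genes were called in the double mutant (13.3 percent), 238 higher (4.28 percent) and 504 lower (9.06 percent), and after quantile normalization 353 rose and 421 fell. Without double mutant replicate 1 the count was 56, and without wild type replicate 1, 2 or 3 it was 250, 363 and 121. In root mean square distance over all genes, double mutant replicates 1, 2 and 3 lay 0.28, 0.31 and 0.42 from the skn7 mean. They lay 0.55, 0.45 and 0.43 from the cup9 mean and 0.57, 0.45 and 0.44 from the wild type mean. Replicates 1 and 2 were thus nearest to skn7, and replicate 3 was about as far from each of the 3 strains. Replicate 3 was also the farthest from the other arrays of its own group, at 0.37 against 0.31 and 0.29.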

How the data were processed

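The deposited values of the 10 h colonies are on the log2 scale, made by the authors with RMA per the submitters' processing notes. Per the labels' protocols, biotinylated cRNA was made from 6 µg total RNA and hybridised to Affymetrix arrays. The set of arrays normalized together is not stated there. RMA adjusts arrays to each other and can compress dim signals, so differences of dim genes may be understated. The second table of 20 arrays was not used.

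The platform annotation, with names from RefSeq, gave a single gene for 5668 of the 6739 probe sets, several genes for 166 and no gene for 905, so 5562 genes were fitted. For 80 genes with several probe sets the brightest was used. Values were used as deposited. One model in limma 3.58.1 (R 4.3.3) held the 21 groups of the table on 68 arrays (47 residual degrees of freedom), without the libraries labelled cup9 replicate 4 and tec1 replicate 1. Tests were two-sided contrasts with Benjamini-Hochberg adjustment over 5562 genes, and the departure from additivity was double minus cup9 minus skn7 plus wild type. The script was tested on simulated data.

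The members and the 29 gene lists were chosen with earlier results of these data known. Genes are named by a rule: CUP9, SKN7, PTR2, OPT2, FLO11, PHD1, SUC2, TRX2, TRR1 and TSA1; up to 15 each way with the largest change among named, called genes, without overlap of arrays in the comparisons with a single mutant; and up to 6 called members of a list. Against cup9 the rule also gave FMC1, CHZ1 and STF2 (lower) and ATF2, TIR3, AQY2, MST27, RMA1 and INA1 (higher), which are not described above. Called haploid-specific and meiosis genes are given by count alone. Other genes are said to be chosen after their values were seen.

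Residuals of same-numbered arrays of the double mutant and skn7 correlated over all genes at 0.506, 0.342 and 0.162. Pairs of the other groups ran from -0.256 to 0.378, the highest being replicate 3 of the double mutant and the wild type. The main fit treated all arrays as unpaired. Its standard errors and p-values take no account of these correlations, and the replicate number entered only in the alternative that blocked on it. Alternatives were to fit the 4 groups alone, to put the odd libraries back, to scale by quantiles, to leave out genes whose mean level was below the 25th percentile, to average the probe sets, to use a robust eBayes with a trend, to block on the replicate number, and to leave out each array in turn.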

Additional observations from a re-analysis of the deposited data

Results flagged for a closer look

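In 6 of 115 genes examined, 1 of the 4 cup9 arrays stood far from the others by Dixon's criterion, and chance alone marks about 1 gene group in 20. SMF3 stood at 8.28 in cup9 replicate 5 against 9.50 to 9.73 in the other cup9 arrays, and RPA43 at 8.09 in the same array against 7.26 to 7.40. MPC54 stood at 2.89 there against 3.04 to 3.07. FKS1 stood at 10.63 in cup9 replicate 1 against 11.27 to 11.34. FRE4 stood at 4.32 in cup9 replicate 2 against 4.04 to 4.08, and CPR6 at 9.07 in cup9 replicate 3 against 9.47 to 9.52. In an array outside the comparisons, the library labelled cup9 replicate 4, CUP9 was at 8.21, above the cup9 arrays and near the wild type.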

How the results depend on the processing

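In the double mutant against skn7 or cup9, no called value of a named gene turned its sign under the alternatives run, with 1 exception. The residual CUP9 signal against cup9 went from 0.59 to -0.26 with the odd libraries put back. Signs of single genes in comparisons with the wild type were not followed. With a fit of only the 4 groups, the double mutant against skn7 had 4 calls and the departure from the sum 2. For cup9 against the wild type, quantile normalization gave 46 calls and the replicate block 15. With each array left out in turn, calls ran from 4 to 15 against skn7, from 171 to 1190 against cup9, from 56 to 770 against the wild type, from 8 to 75 for cup9, from 612 to 2165 for skn7 and from 0 to 0 for the departure. With cup9 against the wild type, the counts were 8 without wild type replicate 1, 15 without replicate 3, 53 without cup9 replicate 1, 11 without replicate 2, 75 without replicate 3 and 11 without replicate 5. With skn7 against the wild type they were 612 without skn7 replicate 1 and 1347 without wild type replicate 3. The replicate block gave 11 calls against skn7, with all 9 kept, 807 against cup9, 599 against the wild type, 1894 for skn7 and 0 departures. Dim genes close to background, such as MPC54, have the least certain levels. The causes of these shifts were not tested.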
